A study of Mus musculus with 6 samples.

Results

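Replication-dependent histone genes encode the linker histone H1 and the core histones H2A, H2B, H3 and H4 that cells make in bulk while DNA is copied. Members were taken from the deposited table by symbol, H1f1 to H1f5 or H2ac, H2bc, H3c or H4c followed by a number. This rule found 67 of 78298 genes, 5 for H1, 18 for H2A, 19 for H2B, 12 for H3 and 13 for H4. The expression of these genes was compared between RENCA cells, a mouse renal adenocarcinoma line, that overexpressed the water channel AQP1 (oe-AQP1) and control cells (oe-NC), with 3 samples in each group. Both groups were transduced with a lentivirus that carries puromycin resistance. In oe-AQP1 cells it held the Aqp1 coding sequence behind the ubiquitin C promoter, which is active in most cell types, and in oe-NC cells it was the empty vector. Selection with puromycin at 2 μg/mL began 48 h after transduction and lasted 14 days, and cells were harvested near 80% confluence. The labels speak both of stable lines and of stably transduced clones, and put all 6 samples in Batch 1.

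Most mRNAs end in a poly(A) tail, but replication-dependent histone mRNAs end just after a short stem-loop that is bound by the protein SLBP. Their genes are small, mostly without introns, and clustered, and their transcripts rise in S phase and are degraded when replication stops. Transcripts that run past the stem-loop to a polyadenylation signal are also known, in particular in differentiated and tumor cells.

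The libraries were made from total RNA with the Illumina TruSeq RNA kit, and the deposited values are expected read counts per gene, which need not be whole numbers. In units of 1e6 counts, the libraries held 19.8, 21.9 and 20.5 in oe-AQP1 replicates 1 to 3 and 19.8, 18.4 and 21.4 in oe-NC replicates 1 to 3. Below, CPM is the count per 1e6 counts after TMM scaling, log2FC is the log2 of the ratio of oe-AQP1 to oe-NC with SE as its standard error, and FDR is the Benjamini-Hochberg adjusted p-value of limma-voom over the 15522 genes that passed a filter on low counts. A gene was called at an FDR under 0.05. Where groups are said not to overlap, this is a description only, since the share of all genes without overlap is not given here. The series design speaks of 3 biological replicates, and the p-values measure only the spread between these samples. A chi-square comparison of counts gave 9.81 and 11.4 per gene between oe-NC replicate 1 and the other oe-NC samples, against 1.71 to 2.04 in the remaining pairs of a group, where sampling noise alone gives about 1. Aqp1 itself had 7713, 8545 and 7838 counts in oe-AQP1 replicates 1 to 3 and 41, 25 and 45 counts in oe-NC replicates 1 to 3 (log2FC = 7.70, SE 0.16, FDR = 1.34e-10), so the groups lay far apart in the direction of their labels.

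The renal identity of the cells was checked with 11 epithelial genes, of which 10 passed the filter. Krt8, a keratin of simple epithelia, was the most abundant, and Pax8, a transcription factor of the renal lineage, had between 3054 and 3630 counts per sample. Epcam, an epithelial adhesion gene, was at 0 in all samples. In oe-AQP1 cells 4 of these genes fell (16.6% of all genes) and 0 rose (16%), and limma-voom at an unadjusted p below 0.05, edgeR's quasi-likelihood test and DESeq2 each gave the same 4 and 0. Among 8 leukocyte genes, Ptprc, which encodes CD45, had at most 3 counts in a sample and Adgre1 was at 0, while Cd68 had 576 to 777 counts and was not called (log2FC = 0.15, FDR = 0.0764). Csf1r, a receptor of macrophages, had 55.6, 74.5 and 75.6 counts in the oe-AQP1 group against 173.2, 182.9 and 202.3 in the oe-NC group. Lyz2, a lysozyme gene, had 234, 268 and 239 against 337, 312 and 361. Both were lower in oe-AQP1 cells, with log2FC of -1.51 for Csf1r (FDR = 1.31e-05) and -0.52 for Lyz2 (FDR = 2.73e-04). Of 8 fibroblast and endothelial genes Thy1 and Kdr were at 0, and Col1a1, a fibroblast collagen gene, had 246, 265 and 267 counts in the oe-AQP1 group against 509, 361 and 374 in the oe-NC group. It was lower in oe-AQP1 cells (log2FC = -0.73, FDR = 0.00238), 1 of 2 genes tested in that list.

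Together the 67 members held little of each library. Their summed expected counts were 1793, 2107 and 1891 in the oe-AQP1 samples and 1768, 1579 and 1795 in the oe-NC samples, or 0.00931% of the counts in oe-AQP1 and 0.00864% in oe-NC cells. Scaled, this is 92.8 ± 2.69 CPM (SD, n = 3) against 86.9 ± 2.96 CPM (SD, n = 3), a log2 ratio of 0.10. The groups did not overlap, although the difference was small. H1f2 alone gave 41.8% of these counts, so the total says little about the other genes. Per length of annotated exon, the median over the members that passed the filter was 1.20 CPM per kb, against 3.94 CPM per kb over all genes tested, and 3 members lay above that general median. How well these libraries captured RNAs without a poly(A) tail was not measured, so low counts need not mean little histone mRNA in the cells.

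Of the 67 members, 23 had no count in any sample, 22 had counts but failed the filter, and 22 were tested. None of the 22 that failed exceeded 17.9 counts in a sample, and 29 members had a count in all 6 samples. The filter asked for about 10 counts, a CPM of 0.497, in at least 3 samples. Of the 22 members tested, 12 reached this level in all 6 samples, and 4 (H3c7, H3c11, H4c2 and H4c3) reached it only in oe-AQP1 samples, so that they could be tested only because they were high there. A further 3 (H3c3, H3c13 and H4c8) reached it in all oe-AQP1 samples and 2 oe-NC samples. H2bc12 reached it in 3 oe-NC samples and 1 oe-AQP1 sample.

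At an FDR under 0.05 by limma-voom, 9 members were higher in oe-AQP1 cells, where 16% of all genes tested were higher, and 2 were lower, where 16.6% of all genes were lower. The higher members were 4 H3 genes, 3 H4 genes, H2bc6 and H1f3, and the lower members were the H2B genes H2bc12 and H2bc21. With the additional fold threshold of the study's methods, a log2FC above 1 or below -1, 7 members were higher (4.39% of all genes) and 1 was lower (0.844%). These 7 were all H3 or H4 genes, and 4 of them are those that passed the filter through oe-AQP1 samples alone. The median log2FC over the 22 members tested was 0.60, against 0.00 over all genes tested, and this median moved with the filter. When 10 or more counts were asked of each sample, 12 members were tested, with a median of 0.27. Of these, 3 were higher (17.1% of all genes) and 1 lower (17.5%). With a filter on the mean count, chosen after seeing the data, 7 were higher (16% of all genes) and 2 lower (16.6%). Without oe-NC replicate 1, 24 members were tested, 9 were higher (19.4% of all genes) and 2 lower (20.7%), and the median was 0.40.

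**Figure D1:**
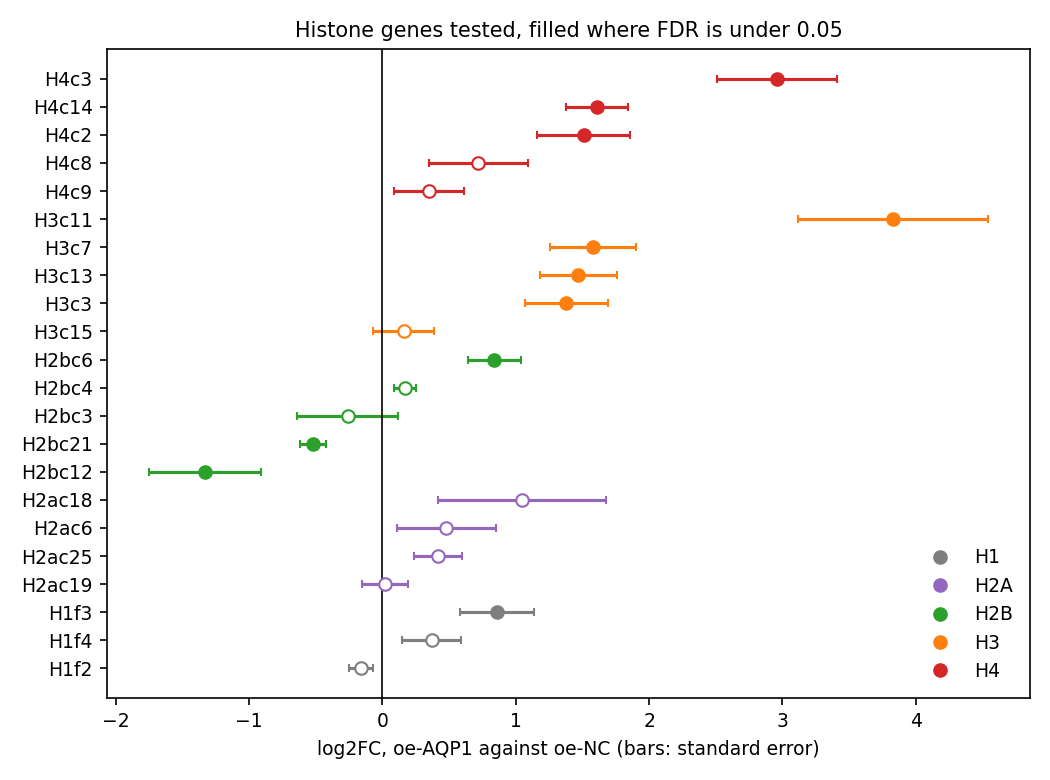
Log2FC for the 22 histone genes that were tested, grouped by histone type, with bars for the SE and filled points where the FDR was under 0.05. The H3 and H4 genes lie between 0.16 and 3.83 and the H1, H2A and H2B genes between -1.33 and 1.05, so the types overlap.

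Because copies of a histone gene are nearly identical, reads can be divided among them, and the sum over a type is less exposed to that than a single gene. For H4, which forms the H3-H4 tetramer at the centre of the nucleosome, the summed expected counts were 182.5, 229 and 202.1 in oe-AQP1 samples and 59, 97.6 and 112 in oe-NC samples. All oe-AQP1 samples lay above all oe-NC samples, and oe-NC replicate 1 was the lowest. The means were 9.83 ± 0.592 CPM (SD, n = 3) and 4.53 ± 1.32 CPM (SD, n = 3), a log2 ratio of 1.12. For H3, its partner in that tetramer, the sums were 150.3, 152.1 and 164.2 in oe-AQP1 and 71.9, 73.3 and 78 in oe-NC samples. Again the groups did not overlap, with 7.50 ± 0.542 CPM (SD, n = 3) against 3.78 ± 0.202 CPM (SD, n = 3) and a log2 ratio of 0.99. No test was made of these sums.

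The other types did not separate the groups. H2A, which pairs with H2B on the outside of the tetramer, summed to 201.2, 230.8 and 175.7 counts in oe-AQP1 and 148.5, 157 and 178 counts in oe-NC samples, a log2 ratio of summed CPM of 0.25. For H2B the sums were 504.5, 609.6 and 578.1 against 533.1, 525.1 and 626.2 counts, a log2 ratio of -0.07. The linker histone H1, which binds DNA where it enters and leaves the nucleosome, summed to 754.1, 885.9 and 770.9 counts against 955.6, 725.6 and 801.3 counts, a log2 ratio of -0.12. In each of these 3 types the ranges of the groups overlapped. Whether the types differed from each other in their response was not tested.

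**Figure D2:**
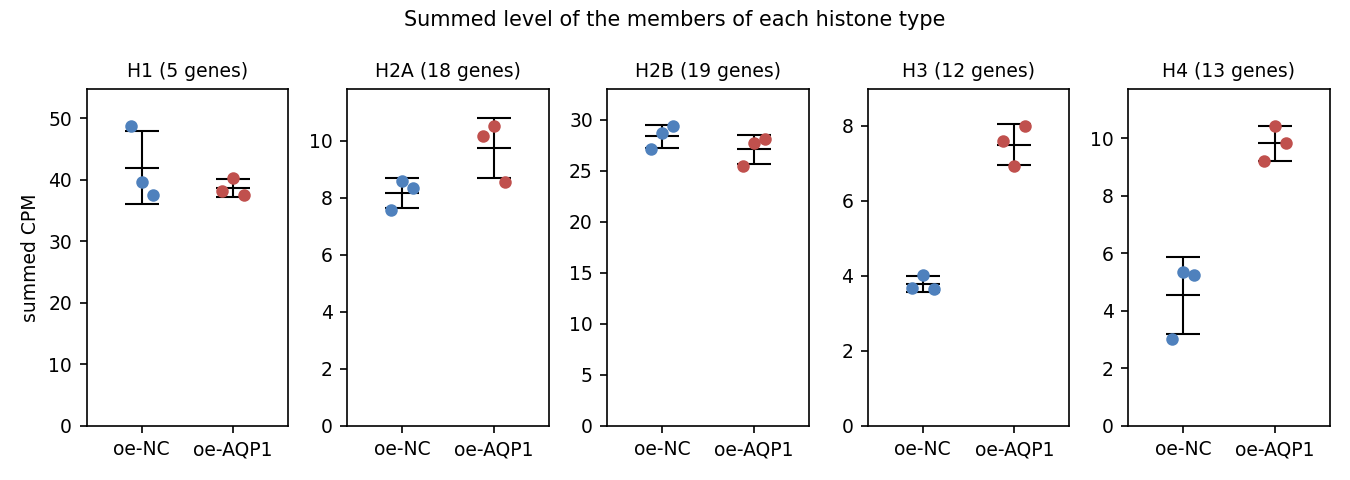
Summed CPM of the members of each histone type in every sample, with the mean and its SD per group (n = 3) and a linear axis from 0. H3 and H4 show no overlap between groups, with log2 ratios of 0.99 and 1.12, and H1, H2A and H2B overlap.

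Among H4 genes, H4c14 gave the clearest values, since its counts were whole numbers in every sample and only 1% of the 50-base stretches of its transcripts occur in any other gene of GENCODE M39. It lies on the reverse strand at chr3:96168998-96170627 of GRCm39 and shares no exon base with another gene. H4c14 had 46, 56 and 55 counts in oe-AQP1 samples and 12, 15 and 22 counts in oe-NC samples. Every oe-AQP1 sample had more than any oe-NC sample. This is 2.52 ± 0.176 CPM (SD, n = 3) against 0.821 ± 0.210 CPM (SD, n = 3), a log2FC of 1.61 (SE 0.23, FDR = 5.42e-04). With each sample left out in turn, its log2FC stayed between 1.41 and 1.79 and its FDR at or below 0.00383.

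H4c3 had 29.1, 32.5 and 49.8 expected counts in oe-AQP1 samples and 2, 5 and 5.77 in oe-NC samples. The groups did not overlap, and no oe-NC sample reached the level that the filter asked for. Its log2FC was 2.96 (SE 0.45, FDR = 6.50e-04), and the ratio of the summed rounded counts, 112 against 13, was 8.19 after scaling for depth, with an exact Clopper-Pearson 95% interval of 4.60 to 15.9 that covers counting error only. Of its 50-base stretches 19.6% occur in other genes. H4c2 had 15.5, 15.6 and 12.9 counts in oe-AQP1 and 5.98, 3 and 5 counts in oe-NC samples (log2FC = 1.51, FDR = 0.00757). These groups did not overlap either, but the FDR of H4c2 was 0.0529 by DESeq2, it passed the filter through oe-AQP1 samples alone, 75.9% of its 50-base stretches recur in other genes and it shares exon bases with the opposite-strand gene 4930558J22Rik, so its count is uncertain.

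Of the tested H4 genes, H4c9 and H4c8 were not called. H4c9, the most abundant H4 gene with 36.1% of the H4 counts, had 57.7, 76 and 47 counts in oe-AQP1 and 29, 55 and 54 counts in oe-NC samples. Its groups overlapped, with only oe-NC replicate 1 clearly lower (log2FC = 0.35, SE 0.26, FDR = 0.338). Without oe-NC replicate 1 the log2FC of H4c9 was 0.06. H4c8 had 18.6, 23.6 and 22.2 counts against 6, 14.6 and 20 counts, with an FDR of 0.174 by limma-voom. H4c6, H4c1 and H4c18 had counts below the filter and were not tested. H4c1 had 4.92, 7.33 and 7.19 counts against 0, 1 and 2.23, and H4c18 had 1.5, 4 and 4 against 0, 1 and 0. Neither overlapped between groups, but on counts too few to test, while H4c6 overlapped. H4c4, H4c11, H4c12, H4c16 and H4c17 were at 0 throughout.

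Among H3 genes, H3c3 had 30.1, 45 and 47 counts in oe-AQP1 samples and 9.44, 15 and 21 counts in oe-NC samples. H3c13 had 35.5, 30.2 and 31.1 counts against 12.3, 13 and 8.21 counts. H3c7 had 19.5, 17.2 and 19 counts against 6, 4 and 7.47 counts. For these 3 genes every oe-AQP1 sample lay above every oe-NC sample. By limma-voom the log2FC was 1.38 for H3c3 (SE 0.31, FDR = 0.00669), 1.47 for H3c13 (SE 0.29, FDR = 0.00366) and 1.58 for H3c7 (SE 0.32, FDR = 0.00412). All 3 stayed under an FDR of 0.05 with each sample left out in turn, but H3c7 passed the filter on all samples through oe-AQP1 alone. Their counts are uncertain, since 47%, 100% and 49.3% of their 50-base stretches occur in other genes, and H3c13 lies wholly opposite the exons of Gm20628.

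H3c11, singled out after its values were seen, had the largest log2FC of all members, 3.83 (SE 0.71, FDR = 0.00248). It had 16.7, 21.9 and 11 counts in oe-AQP1 and 0.21, 0.50 and 5.2 counts in oe-NC samples, so the fold rests on few oe-NC reads and the gene passed the filter through oe-AQP1 samples alone. The ratio of the summed rounded counts, 50 against 5, was 9.50 after scaling for depth, with an exact 95% interval for counting error of 3.81 to 30.5. H3c10, another H3 gene with 93.9% of its 50-base stretches in other genes, had 0.21 and 0.50 counts in oe-NC replicates 1 and 2, the same fractions as H3c11, and 0 in the other samples. H3c15 was the most abundant H3 gene by counts, with 32.9% of the H3 total, and had 33.3, 37.9 and 51.7 counts in oe-AQP1 and 31.2, 40.3 and 32.8 counts in oe-NC samples. Its groups overlapped (log2FC = 0.16, FDR = 0.650), and with each sample left out in turn its log2FC lay between -0.03 and 0.30. Counts of H3c14 and H3c2 did not exceed 8.50 in a sample, and H3c1, H3c4, H3c6 and H3c8 had none.

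In the H2B family the members moved in both directions. H2bc21, whose counts were whole in every sample and which shares 0% of its 50-base stretches with other genes, had 140, 162 and 172 counts in oe-AQP1 samples and 206, 209 and 230 counts in oe-NC samples. All oe-AQP1 samples lay below all oe-NC samples. The means were 7.60 ± 0.675 CPM (SD, n = 3) and 10.9 ± 0.481 CPM (SD, n = 3), a log2FC of -0.52 (SE 0.10, FDR = 0.00224). It was called in each of the 6 fits that left out a sample, with a log2FC between -0.59 and -0.47.

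H2bc6 had 40.9, 44.1 and 46.3 counts in oe-AQP1 samples and 21.7, 25.4 and 22.1 counts in oe-NC samples, with no overlap (log2FC = 0.84, SE 0.20, FDR = 0.00934). Its annotated exons share 528 bases on the same strand with the linker histone gene H1f4, so reads of the pair cannot be told apart there. H2bc12 had 5.2, 10.9 and 3.73 counts against 11.9, 11.6 and 24.2 counts in oe-NC samples. Scaled by depth the groups did not overlap, and its log2FC was -1.33 (SE 0.42, FDR = 0.0348). This call rested on few reads: the FDR of H2bc12 was 0.0901 by DESeq2, 0.116 without oe-AQP1 replicate 1, 0.144 without oe-AQP1 replicate 3, 0.0524 without oe-NC replicate 2 and 0.105 without oe-NC replicate 3.

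H2bc4 gave 53% of the H2B counts, with 292.8, 361.4 and 314.8 in oe-AQP1 samples and 249.6, 251.3 and 321.4 in oe-NC samples. The groups overlapped (log2FC = 0.17, SE 0.08, FDR = 0.164). H2bc3 ranged from 10 to 28 counts over all samples, also with overlap. A further 8 H2B genes had counts below the filter and 6 had none. Among the untested, H2bc13 had 1.01, 1.34 and 0.84 counts in oe-AQP1 samples against 4.44, 1.18 and 4.90 in oe-NC samples. Scaled by depth, its oe-AQP1 samples all lay below the oe-NC samples, on few counts.

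Of the 4 H2A genes tested, 0 were called by limma-voom, edgeR's quasi-likelihood test or DESeq2. Limma-voom called 32.5% of all genes in either direction. At an unadjusted p below 0.05 by limma-voom, 1 H2A gene was higher and 0 were lower. H2ac25 had 87, 74 and 63.7 counts in oe-AQP1 samples and 51, 55.2 and 52.5 counts in oe-NC samples. The groups did not overlap, but the gene was not called (log2FC = 0.42, SE 0.18, FDR = 0.0962). The gene lies on chromosome 11, away from the large clusters, and shares 1531 exon bases on the same strand with Trim17, so part of its count could belong to that gene. H2ac19, a copy with 100% of its 50-base stretches in other genes, ranged from 51.4 to 75.5 counts with overlap (log2FC = 0.02, FDR = 0.952). H2ac18, a neighbour with the same share, had 19.9, 31.8 and 6.63 counts in oe-AQP1 and 4.59, 4.44 and 18.3 counts in oe-NC samples. The samples of both groups were widely spread (log2FC = 1.05, SE 0.63, FDR = 0.235), and without oe-AQP1 replicate 3 the log2FC of H2ac18 was 1.64 (FDR = 0.0440), against 0.61 (FDR = 0.549) without oe-AQP1 replicate 2. The remaining gene tested, H2ac6, overlapped between groups, 8 H2A genes had counts but were not tested, and 6 had none.

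Among H1 genes, H1f2 was the most abundant member of all, and its counts were whole in every sample. It had 692, 814 and 708 counts in oe-AQP1 samples and 914, 683 and 763 counts in oe-NC samples, where oe-NC replicate 1 was the highest. The groups overlapped, at 35.5 ± 1.36 CPM (SD, n = 3) and 39.9 ± 5.82 CPM (SD, n = 3), and the log2FC was -0.16 (SE 0.09, FDR = 0.219). Without oe-NC replicate 1 it was -0.04. Per length of exon it also led the members, with 24.2 CPM per kb, ahead of H2ac19 with 5.74 and H2bc4 with 4.76 CPM per kb.

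H1f4 had 34.1, 27.9 and 33.7 counts in oe-AQP1 samples and 20.6, 23.6 and 25.3 counts in oe-NC samples, and scaled by depth the groups overlapped (log2FC = 0.37, FDR = 0.241). H1f3 had 28, 44 and 29.2 counts against 21, 19 and 13 counts in oe-NC samples. Its groups did not overlap, and its log2FC of 0.86 had an FDR of 0.0420 by limma-voom. That call held in 1 of the 6 fits that left out a sample, the fit without oe-NC replicate 1. The FDR of H1f3 was 0.0651, 0.148 and 0.0654 without oe-AQP1 replicates 1, 2 and 3 and 0.0646 and 0.157 without oe-NC replicates 2 and 3. It was 0.103 by DESeq2 and 0.0835 without the filter. H1f1 and H1f5 had no count.

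A count was taken as whole when it lay within 1e-06 of an integer. Of the 44 members with a count, 7 were whole in every sample and 37 were not, while 51.6% of all genes tested were whole in every sample. By type, 1 of 3 H1, 1 of 12 H2A, 4 of 13 H2B, 0 of 8 H3 and 1 of 8 H4 genes with a count were whole. Over the 7 whole members the median share of 50-base stretches found in other genes was 18.1%, and over the 37 others it was 67.1%. Only H1f2, H2bc21, H2bc3 and H4c14 were both whole and tested. Of these, 1 was higher (16% of all genes) and 1 lower (16.6%). H2bc4, H2ac25 and H2ac19 were the most abundant members with fractional counts. Of the 9 higher members 8 had fractional counts, as did 18 of the 22 members tested.

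Restricting the members changed some of the sums. Over members with under 50% of their 50-base stretches in other genes, chosen as a limit after seeing the data, the log2 ratio of summed CPM was 1.44 for H3 and 0.56 for H2A. The H3 value came only from H3c3 and H3c7, both called higher, and H3c7 passed the filter through oe-AQP1 samples alone. The H2A value came from H2ac6, which had a mean of 10.55 counts and was not called, and 1 count of H2ac8. Over members that share no exon base with another gene the log2 ratio was 0.72 for H3, -0.53 for H2B, mostly from H2bc21, and -0.06 for all types together. For H4 the ratio was 1.14 and 1.13 under these restrictions.

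By position, 53 members lie on chromosome 13, 10 on chromosome 3, 3 on chromosome 11 and 1 on chromosome 6. On chromosome 13, 15 members were tested, 7 of them higher and 1 lower, and on chromosome 3, 6 were tested, 2 higher and 1 lower, beside 16% of all genes higher and 16.6% lower. Of the 7 higher genes on chromosome 13, 4 passed the filter through oe-AQP1 samples alone. The processing notes of the labels list GRCm38, while the study's methods name GRCm39, and all positions given here are those of GRCm39. In the cluster on chromosome 3, H2bc21 (chr3:96128435-96131054) was lower, and H4c14 and H3c13 (chr3:96175970-96176457) were higher. H3c15 and H2ac19, which lie between them, were not called.

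**Figure D3:**
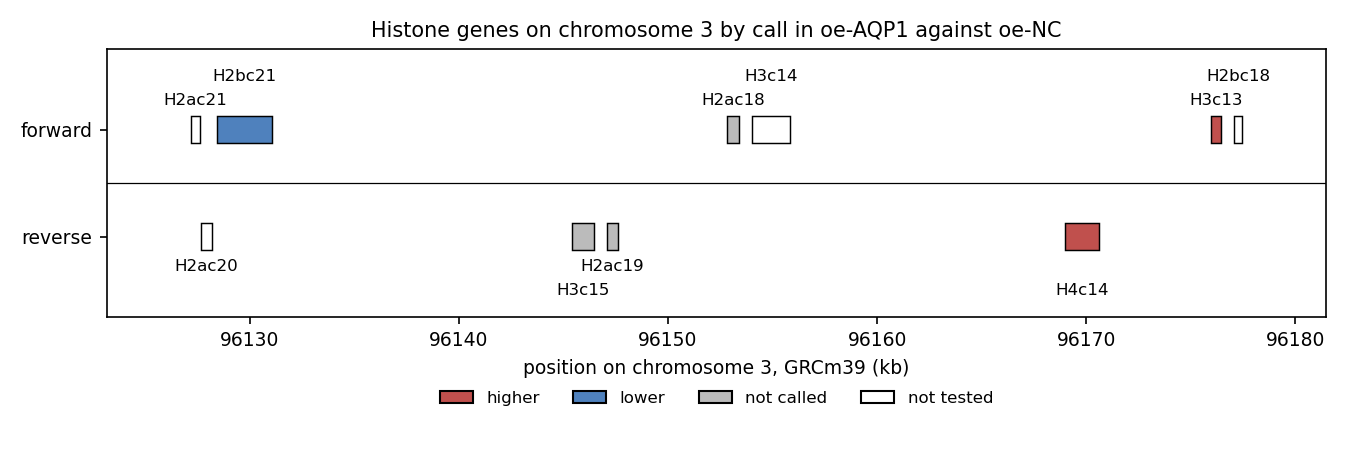
Map of the 10 histone genes on chromosome 3 of GRCm39, in kb, with genes of the forward strand above and of the reverse strand below the line, coloured by the limma-voom call. H4c14 and H3c13 were higher, H2bc21 was lower, and the genes between them were not called or not tested.

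The stem-loop that ends these mRNAs was searched on the genome in the 150 bases after the stop codon of each member, and 65 of 67 had a match. H2bc21, which was lower in oe-AQP1 cells, and H2ac22 had none, so both are members by symbol only. The stem is formed by 6 bases on each side of a loop. In H1, H2A, H2B and H3 genes all 52 matches had the stem GGCTCT and AGAGCC, whereas the 13 H4 genes had other stems, GGCCCT and AGGGCC in 11 and GGTCCT and AGGACC in 2. Stem-loops of 7 genes described above are given as the mRNA strand with stems in capitals, to show what sets H4 apart, on GRCm39 at chr3:96170250-96170275 (reverse strand) for H4c14, chr13:23882067-23882092 (reverse) for H4c3, chr13:23941344-23941369 (forward) for H4c2, chr13:23729097-23729122 (forward) for H3c7, chr3:96176446-96176471 (forward) for H3c13, chr13:22220465-22220490 (forward) for H2bc12 and chr13:23923490-23923515 (forward) for H1f2.
H4c14: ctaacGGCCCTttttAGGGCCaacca
H4c3: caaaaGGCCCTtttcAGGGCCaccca
H4c2: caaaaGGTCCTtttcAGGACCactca
H3c7: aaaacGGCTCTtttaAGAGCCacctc
H3c13: acaaaGGCTCTtttcAGAGCCaccta
H2bc12: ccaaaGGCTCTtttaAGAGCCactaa
H1f2: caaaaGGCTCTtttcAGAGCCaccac
Among these 7 genes only the H4 genes differ in the stem.

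Annotated transcripts of 27 members run more than 100 genomic bases past the stem-loop, and 13 of these 27 were tested, against 8 of the 38 members whose annotation ends within 100 bases of it. Of the tested genes, 5 of the 13 were higher and 0 lower, and 4 of the 8 were higher and 1 lower, where 16% of all genes were higher and 16.6% lower. These counts include H4c3 and H3c7 among the 5, and H4c2 and H3c11 among the 4, which passed the filter through oe-AQP1 samples alone. The annotation runs 1257 bases past the stem-loop in H4c14, 840 in H1f2, 454 in H4c3, 365 in H3c7 and 4884 in H1f3, and 30 in H2bc12. In H3c13 the annotated transcript ends 9 bases before the end of the stem-loop. Reads past the stem-loop were not counted apart from the others, so tailed and stem-loop transcripts cannot be told apart here.

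Promoters from RefSeq on GRCm38.p6, 250 bases before to 50 bases after the start, were matched to 60 of the 67 members, and motifs were searched on both strands. The CCAAT box, written CCAAT, occurred in all matched H1, H2A, H2B and H3 promoters and in 3 of 11 H4 promoters, against 37.4% of all 32851 promoters. The core of the site of HINFP, an activator of H4 genes, written GGTCCG, occurred in 10 of 11 H4 promoters, 1 of 12 H3 promoters, 1 of 15 H2B promoters and no H1 or H2A promoter, against 8.3% of all promoters. The octamer ATTTGCAT occurred in 8 of 15 H2B and 6 of 17 H2A promoters, against 1.7%, and in no other member. TATAAA was found in 38 of the 60 members and 13.6% of all promoters. The windows around GGTCCG (in capitals) are given for the 4 tested H4 genes with a matched promoter, of which H4c3 and H4c2 rose and H4c9 and H4c8 were not called, on the strand of the gene and placed on GRCm39 by exact match at chr13:23882470-23882499 (reverse) for H4c3, chr13:23940914-23940943 (forward) for H4c2, chr13:22225561-22225590 (reverse) for H4c9 and chr13:23715197-23715226 (forward) for H4c8.
H4c3: agttttcaaccaGGTCCGcagaaggcctat
H4c2: agttctcaaccaGGTCCGataagagcctat
H4c9: tgttttcactccGGTCCGcaagttccctat
H4c8: agtcttcaatcaGGTCCGaaaacactgcat
H4c3 and H4c2 passed the filter through oe-AQP1 samples alone, and the FDR of H4c2 was 0.0529 by DESeq2. A link between these windows and the calls was not tested. A match is a description of the sequence and not evidence of binding.

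Some of the replication-independent variants, whose mRNAs mostly carry a poly(A) tail, lay above every member per length of exon, with 331 CPM per kb for H3f3b against 24.2 for H1f2, while others were at 0. Since capture of RNAs with and without a tail was not compared, these levels do not rank the amounts in the cells. H3f3b, a gene for the H3.3 variant, had 22039, 24471 and 22885 counts in oe-AQP1 samples and 16244, 16324 and 19582 counts in oe-NC samples. Scaled by depth all oe-AQP1 samples were higher (log2FC = 0.34, SE 0.04, FDR = 1.08e-04). H3f3a, the second gene for that variant, had a log2FC of -0.07 (FDR = 0.338). H2az1, for the H2A.Z variant found at promoters, had 11230, 12408 and 11650 counts against 12928, 13293 and 15524 counts, and was lower (log2FC = -0.31, FDR = 3.09e-04). H2az2 (log2FC = -0.34, FDR = 0.00292) and H2ax, the variant phosphorylated at DNA breaks (log2FC = -0.48, FDR = 0.0194), were lower too by limma-voom. H2ax had 533, 583.9 and 523.2 counts in oe-AQP1 samples against 930.4, 583 and 699.4 in oe-NC samples, with oe-NC replicate 1 the highest. The log2FC of H2ax without that sample is not given here. Of 9 variant genes tested, 1 was higher and 3 were lower (32.5% of all genes were called in either direction), with a median log2FC of -0.11.

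Of 24 genes for histone mRNA 3′ end formation and decay, all tested, 6 rose and 2 fell in oe-AQP1 cells by limma-voom (16% and 16.6% of all genes), with a median log2FC of 0.08. Slbp, the stem-loop binding protein, had 1600, 1792 and 1720 counts in oe-AQP1 and 1612, 1537 and 1733 counts in oe-NC samples, with overlap (log2FC = -0.01, FDR = 0.904). Tut7, a uridylyl transferase that tags RNAs for decay, had 2106, 2374 and 2259 counts against 1129, 1160 and 1335 counts (log2FC = 0.82, FDR = 6.13e-07). Its relative Tut4 had 23, 25 and 16 counts against 1, 3 and 1, a log2FC of 3.36 (FDR = 4.08e-04) and a ratio of the summed counts, 64 against 5, of 12.2 after scaling for depth, with an exact 95% counting interval of 4.95 to 38.7. Tut4 passed the filter through oe-AQP1 samples alone. Srrt, a partner of the nuclear cap complex, was lower (log2FC = -0.47, FDR = 2.23e-05). Without oe-NC replicate 1, 13 genes of the list were called, but calls over all genes also rose, to 19.4% higher and 20.7% lower.

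Among 14 transcription factors and kinases of histone genes 1 was higher and 1 lower by limma-voom, where 32.5% of all genes were called, with a median log2FC of 0.03. Npat, the coactivator that assembles histone locus bodies, had 831, 920 and 892 counts in oe-AQP1 and 737, 748 and 877 counts in oe-NC samples. Its scaled levels did not overlap, but the difference was small (log2FC = 0.09, FDR = 0.239). Coil, the scaffold of Cajal bodies, was higher (log2FC = 0.29, FDR = 0.00477), and Ccne1, the cyclin that with CDK2 starts S phase, was lower (log2FC = -0.39, FDR = 0.00214). Without oe-NC replicate 1, 7 genes of this list were called, in a fit with 19.4% of all genes higher and 20.7% lower.

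Of 26 histone chaperones 4 were higher (16% of all genes) and 6 lower (16.6% of all genes) by limma-voom, with a median log2FC of -0.02. Daxx, which deposits H3.3, had 10559, 11958 and 11068 counts in oe-AQP1 and 3326, 2716 and 3115 counts in oe-NC samples, without overlap (log2FC = 1.80, SE 0.05, FDR = 1.67e-09). Asf1a, a chaperone of H3 and H4, was higher (log2FC = 0.31, FDR = 0.00796), and Anp32e, which removes H2A.Z, was lower (log2FC = -0.30, FDR = 0.00350). In the fit without oe-NC replicate 1, 16 chaperones were called, and 19.4% of all genes were higher and 20.7% lower.

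Histone mRNA levels follow the share of cells in S phase, and in bulk samples a change in that share and a change per cell cannot be told apart. Of 35 genes of DNA replication, all tested, 6 were higher and 7 lower by limma-voom, beside 16% and 16.6% of all genes, with a median log2FC of -0.02. Mcm10, a replication initiation factor, had 2128, 2338 and 2213 counts in oe-AQP1 and 1467, 1342 and 1512 counts in oe-NC samples (log2FC = 0.55, FDR = 3.90e-06). Gins3, a subunit of the replicative helicase, and Rfc3, of the clamp loader, were also higher, with log2FC of 0.44 and 0.34 (FDR = 0.00149 and 3.38e-04 by limma-voom). These 3 had the largest changes of the called genes. Rrm2, a ribonucleotide reductase subunit chosen after its values were seen, was lower (log2FC = -0.31, FDR = 7.88e-05), and so were Mcm2, Mcm3, Mcm4, Rpa1, Rrm1 and Prim1. Of the whole list 8 genes were called without oe-AQP1 replicate 1 (12.1% of all genes higher, 11.6% lower), 8 without oe-AQP1 replicate 2 (11.7% and 11%) and 18 without oe-NC replicate 1 (19.4% and 20.7%).

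Of 13 RNAs in the table that are known to lack a poly(A) tail, 4 were tested, 3 of them higher and 1 lower (16% and 16.6% of all genes), and 2 of the 3 have identical counts. Rn7sk, the RNA of a transcription elongation regulator, had 97, 153 and 108 counts in oe-AQP1 samples and 55, 47 and 54 counts in oe-NC samples, without overlap (log2FC = 1.10, SE 0.18, FDR = 0.00101). Rn7s1, the signal recognition particle RNA, had 84, 121.3 and 114 counts against 59, 46 and 63.5 counts (log2FC = 0.84, FDR = 0.00298), and its copy Rn7s2 had the same counts. Malat1, whose 3′ end is a triple helix, was lower (log2FC = -0.23, FDR = 0.0129). Rnu11 and Rnu7 were at 0, and Rmrp, Terc and Scarna2 overlapped between groups and were not tested. The list's summed counts, mostly Malat1, were 5100, 5623 and 6035 in oe-AQP1 and 6113, 5647 and 6195 in oe-NC samples, or 269 against 304 CPM.

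Ribosomal RNAs were looked at after the data had been seen. Rn18s-rs5, a ribosomal RNA gene by its annotation, had 27541, 36692 and 32546 counts in oe-AQP1 samples and 15812, 14458 and 16239 counts in oe-NC samples (log2FC = 0.98, FDR = 9.14e-07). The mitochondrial 12S RNA mt-Rnr1 had 21446, 23278 and 23439 counts against 2114, 2472 and 2992 counts (log2FC = 3.11, SE 0.08, FDR = 6.14e-10), while the 16S RNA mt-Rnr2 had a log2FC of 0.27 (FDR = 0.0108). The summed counts of all 1507 snoRNA genes were 52.1, 47.7 and 58.4 in oe-AQP1 and 16.6, 19.9 and 31.9 in oe-NC samples, a log2 ratio of 1.16, and those of 51 scaRNA genes had a log2 ratio of 0.01 with overlap. The sums over snRNA genes and over the class misc_RNA, which holds Rn7sk, had log2 ratios of 0.85 and 0.92 without overlap. Rn7sk, Rn7s1, Rn18s-rs5, mt-Rnr1, mt-Rnr2 by less, and the summed snoRNAs, snRNAs and misc_RNAs were higher in oe-AQP1 cells, as were the H3 and H4 sums. Malat1 was lower, and the summed scaRNAs and ribozyme RNAs overlapped, as did the H1, H2A and H2B sums. A link between these non-coding RNAs and the histone differences was not tested.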

How the data were processed

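The authors aligned the reads and deposited expected counts of each gene that are not scaled between samples, and 2 columns of group means, not used here. The submitters' processing notes list fastp, HISAT2, featureCounts and Subread. They do not say how fractional values arose, so the counter behind the deposited values is uncertain. The strand setting of the counting is not stated, so overlapping and antisense genes and near-identical copies are uncertain. For the test the counts were rounded, filtered with filterByExpr by group, scaled by TMM (factors 0.993 to 1.006) and compared by limma-voom (limma 3.58.1, edgeR 4.0.16, R 4.3.3). The study's methods name TMM and limma-voom. They state neither rounding nor this filter, and interferon-stimulated genes, which they left out, were kept here. DESeq2 1.42.0 and edgeR's quasi-likelihood test were alternatives. Sums and CPM used the counts as deposited, with rounded counts as their alternative, the reverse of the written plan. The steps were tested on simulated data. Exon lengths, positions and transcripts are from GENCODE M39, which holds 78168 of the 78298 genes and all 67 members. The members and gene lists were chosen with earlier results of these data known. Named genes are the 3 with the highest mean CPM in each histone type, up to 5 called members with the largest changes in each direction among those with a mean of at least 10 counts, up to 3 called genes with the largest change in each list, the 3 most abundant whole and 3 most abundant fractional members, and Aqp1, Slbp, Npat, H2az1, H3f3a and H3f3b. Other names were chosen after their values were seen.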

Additional observations from a re-analysis of the deposited data

How the results depend on the processing

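Aqp1 and the called members kept their direction under each alternative in which they were followed. For H3c11 and H4c2 these were only edgeR's quasi-likelihood test and DESeq2. Called genes outside the members, except Aqp1, were not followed individually. The median log2FC of the members and the sum over all members changed sign, as given below. With 1 sample left out at a time, members higher ranged from 8 to 9, members lower from 1 to 2, their median log2FC from 0.40 to 0.68, and the genes called from 6 to 13 for 3′ end factors, 2 to 7 for transcription factors, 7 to 16 for chaperones and 8 to 18 for S phase genes, while calls over all genes ranged from 3601 to 6456. Members lower numbered 1 by DESeq2, without a filter on counts, with 10 or more counts in each sample, and over whole members. Members higher numbered 7 of 22 by DESeq2, 3 of 12 with 10 or more counts per sample, and 1 of 4 over whole members. Over all genes, DESeq2 called 12.7% higher and 14% lower. The fit with 10 or more counts in each sample called 17.1% and 17.5%. The median log2FC was 0.52 with sample quality weights, 0.40 without the filter, 0.27 with 10 or more counts in each sample, 0.47 without rounding and -0.21 over whole members. The edgeR quasi-likelihood test called 4 transcription factors, with 16% of all genes higher and 16.7% lower. Sample quality weights called 5 transcription factors and 16 chaperones, with 20.1% of all genes higher and 21.4% lower. Alternatives added after seeing the data were a mean of at least 10 counts, which gave a median of 0.40, and 2 restrictions of the sums. Over members with under 50% shared 50-base stretches the log2 ratio was 0.56 for H2A, 1.44 for H3 and 0.04 for all members, and over members sharing no exon base it was -0.53 for H2B, 0.72 for H3 and -0.06 for all members. The values of 0.56 and 1.44 rest on the few genes named above. Fewer members or samples enter several of these alternatives, and otherwise the cause was not tested.

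With the replicate number as a block, members higher stayed at 9 and members lower were 1, since the FDR of H2bc12 was 0.0508, and 4825 genes were called in all. Samples with the same number had correlations of 0.009, -0.004 and -0.068, and no sample correlated best with its own number. With 3 samples per group this cannot decide whether samples with the same number were handled together.

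Most members have few reads at this depth. Of 67 members 22 were tested, and without the filter 43 were, of which 10 were higher and 1 lower, with 5 of 8 H4 genes higher, in a fit with 6.23% of all genes higher and 7.21% lower. Reads divided among copies, the unstated strand and the wide spread of oe-NC replicate 1 limit the values of single genes.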
